A study of Mus musculus with 73 samples.

Results

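The Otx2 promoter library is 1 of 8 massively parallel reporter libraries in which a promoter was combined with pairs of candidate enhancers. Its members are the fragment combinations that the deposited activity table assigned to the Otx2 promoter, which made 14042 of the 110180 combinations measured in all. Each plasmid carried the Otx2 promoter, a barcoded GFP reporter and 2 genomic or control fragments joined downstream of the reporter, in positions 1 and 2 and in either orientation. Combinations were classed by their fragments. A total of 359 held 2 control fragments (CC), 5097 held 1 enhancer and 1 control fragment (EC) and 8586 held 2 enhancers (EE). The EC class covered 57 enhancers and the EE class 58, and 20 control fragments were used, of which 5 were random sequences and 15 were shuffled genomic sequences. The number of EC combinations per enhancer ranged from 5 to 160 with a median of 70, and no combination had an activity of 0 in any replicate.

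All libraries were assayed in E14tg2a cells, a mouse embryonic stem cell line that was kept in 2i+LIF medium, which holds the cells in naive pluripotency. Each biological replicate was a separate nucleofection of 1 library, and RNA was collected after 24 hours. The Otx2 library had 3 biological replicates of reporter cDNA and 1 plasmid (pDNA) sample, each sequenced in 2 runs. Reporter activity is the mean, over the barcodes of a combination, of the ratio of normalised cDNA to pDNA counts. All 3 replicates took their denominators from the same pDNA sample, and their spread leaves out the error of the plasmid counts. The plasmids were not integrated in the genome, and only the reporter was sequenced, so the identity of the cells was not tested by markers here. The other 7 libraries, with the promoters of Ap1m1, Fgf5, Klf2, Lefty1, Nanog, Sox2 and Tbx3, went through the same steps and are used below only to show where the Otx2 promoter differs.

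Otx2 encodes a homeodomain transcription factor that acts in embryonic stem cells as they leave the naive state, and later in the anterior nervous system. An enhancer is a stretch of DNA that binds transcription factors and raises transcription from a promoter, largely irrespective of distance and orientation. When several enhancers act on a promoter, their effects may add up on the linear scale, multiply, or saturate. The enhancers tested were DNase hypersensitive fragments named after the locus they came from. These loci were those of the pluripotency factors Pou5f1 (Oct4), Sox2, Nanog, Klf2 and Tbx3, the signalling proteins Nodal and Lefty1, the growth factor Fgf5, and Otx2 itself.

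The Otx2 promoter fragment spanned chr14:48662796-48663245 (mm10) inside the Otx2 gene, which lies on the minus strand at chr14:48656781-48667644. The fragment lay beside an internal RefSeq start of the gene, which it did not reach. The paper chose its promoter fragments around annotated transcription starts that overlapped DNase hypersensitive sites. Only RefSeq starts were examined here, so the start that the authors used may be another. A pair of annotated Otx2 starts fell near fragments of the library and are shown because they tie the tested fragments to the gene. Both sequences are RefSeq promoter windows of GRCm38.p6, minus strand, 5′ to 3′. In the window chr14:48662685-48662984, capitals mark the 189 bases that lie in the listed promoter fragment. Its annotated start, at 48662734, lies 62 bases beyond the end of the fragment, and the reverse primer of the fragment was found in the window with its outer end at 48662824. In the window chr14:48665060-48665359, capitals mark the 93 bases that lie in the enhancer fragment Otx2_E114, and its annotated start, at 48665109, lies inside that fragment.
Otx2 promoter window: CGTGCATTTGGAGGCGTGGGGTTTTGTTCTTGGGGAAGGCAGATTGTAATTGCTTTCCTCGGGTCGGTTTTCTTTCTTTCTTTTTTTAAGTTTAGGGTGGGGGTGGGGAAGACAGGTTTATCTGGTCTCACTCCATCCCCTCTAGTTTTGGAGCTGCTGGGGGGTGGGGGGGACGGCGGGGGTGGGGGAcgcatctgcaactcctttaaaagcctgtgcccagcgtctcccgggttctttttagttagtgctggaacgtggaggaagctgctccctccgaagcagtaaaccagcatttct
Otx2_E114 window: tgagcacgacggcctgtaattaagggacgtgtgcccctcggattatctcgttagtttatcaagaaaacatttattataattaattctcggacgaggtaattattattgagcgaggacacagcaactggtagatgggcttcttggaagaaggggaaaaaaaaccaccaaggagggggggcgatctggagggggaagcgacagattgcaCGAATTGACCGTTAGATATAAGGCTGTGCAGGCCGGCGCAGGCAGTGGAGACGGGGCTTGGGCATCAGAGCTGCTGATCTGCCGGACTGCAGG
Both strands of the windows were searched for ATGCAAAT (the octamer bound by POU factors such as Oct4), CATTGTT (SOX factors), CAAGGTCA (Esrrb), GGGTGTGG (KLF factors) and TAATCC (OTX homeodomains). None of the 5 occurred in the promoter window. TAATCC occurred 1 time in the Otx2_E114 window, outside the part that the fragment covers. Among 32851 RefSeq windows of the same length, the shares that held each motif were 1.74% for ATGCAAAT, 3.78% for CATTGTT, 1.56% for CAAGGTCA, 3.56% for GGGTGTGG and 7.06% for TAATCC. A missing match says only that these letters are not in the window.

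A group of neighbouring fragments, Otx2_E110 to Otx2_E112, held both the strongest and the weakest fragment of the locus, so the primers that define them are given next. By their listed coordinates, Otx2_E110 and Otx2_E111 shared 88 bases and Otx2_E111 and Otx2_E112 shared 123 bases. Capitals mark 13 bases of the Otx2_E110 reverse primer that are the reverse complement of the start of the Otx2_E111 forward primer, so the amplified fragments meet there.
Otx2_E110 forward: gtcaaggaccaatcgttaagcactttc
Otx2_E110 reverse: AGAAGCAAGTTCTgggatggagg
Otx2_E111 forward: AGAACTTGCTTCTgaccctctgg
Otx2_E111 reverse: ctagtcaaattgagaaagccgacttgg
Otx2_E112 forward: ccaaatccagcaaagccagtcagtc
Otx2_E112 reverse: catcctagccgtgcctgcaaatc
The baseline of the library rests on the control fragments, and a pair of them that lay near the upper and lower end of the control values is shown by the first 300 of 493 bases. Capitals mark the first 22 bases, which both share.
RandomE5: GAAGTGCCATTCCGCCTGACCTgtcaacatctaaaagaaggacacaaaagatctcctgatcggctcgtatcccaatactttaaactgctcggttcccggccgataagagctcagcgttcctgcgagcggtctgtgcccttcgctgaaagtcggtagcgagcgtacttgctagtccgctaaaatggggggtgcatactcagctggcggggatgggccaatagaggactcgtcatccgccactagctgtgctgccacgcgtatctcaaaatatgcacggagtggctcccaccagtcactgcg
E95-shuffled1: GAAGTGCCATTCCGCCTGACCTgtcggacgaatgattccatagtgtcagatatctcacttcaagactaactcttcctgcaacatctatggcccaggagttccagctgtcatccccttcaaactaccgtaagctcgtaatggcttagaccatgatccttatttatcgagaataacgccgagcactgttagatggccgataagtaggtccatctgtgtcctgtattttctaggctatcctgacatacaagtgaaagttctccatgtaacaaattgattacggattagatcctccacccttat

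The baseline activity of the Otx2 promoter was first calculated as the median activity of the CC combinations. It was 0.457, 0.447 and 0.364 in replicates 1, 2 and 3, or -1.25 ± 0.18 on the log2 scale (SD, n = 3). Replicate 3 thus had the lowest baseline. Boost is the log2 of an activity over the baseline of the same replicate, so a boost of 1 is a doubling. Of the 57 enhancers, 53 had their highest boost in replicate 3, and the part of the baseline in this was not tested. All CC combinations had both fragments in the same orientation, whereas 2491 EC and 4285 EE combinations had them in opposite orientations.

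Activity was higher with 1 enhancer than with none and higher again with 2, in all 3 replicates. The median EC activity was 0.788, 0.729 and 0.693 in the 3 replicates, and the median EE activity was 1.16, 1.11 and 1.11. The median boost of the EC class was 0.81 ± 0.11 (SD, n = 3), or 1.75-fold, and that of the EE class was 1.42 ± 0.17, or 2.68-fold. The median of EE exceeded that of EC by 0.55, 0.61 and 0.68 in the replicates (0.62 ± 0.07, 1.53-fold). All 3 replicates agreed in sign for each of these differences, and the two-sided exact permutation test over the replicates gave p = 0.25, which is the smallest p that 3 replicates allow. A total of 4040 EC combinations (79.3%) and 8127 EE combinations (94.7%) were above the baseline in all 3 replicates, compared with 100 CC combinations (27.9%).

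The spread between replicates sets what single combinations can show. Across combinations, activities of different replicates correlated with Pearson's r of 0.86 to 0.89 in the EE class, 0.84 to 0.86 in the EC class and 0.49 to 0.55 in the CC class, where combinations share fragments and are not independent. The median SD of a combination over replicates was 0.23 log2 units for EE and for EC and 0.34 for CC. Each combination was tested against the baseline with limma over all 8 libraries, and was called at a Benjamini-Hochberg adjusted p below 0.01. Of the 13683 EC and EE combinations with the Otx2 promoter, 10823 were called higher, where the share over all libraries was 79.4%. These were 3238 of 5097 EC combinations (63.5%) and 7585 of 8586 EE combinations (88.3%). None was called lower, as in all libraries together (0%). Without the mean-variance trend of the fit, 75 Otx2 combinations were lower at the same limit. At a limma adjusted p below 0.05, 107 Otx2 combinations were lower (0.851% over all libraries), of which 85 were EC and 22 were EE, and 132 were lower at an unadjusted p below 0.05.

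Most single enhancers gave activity above the baseline of the Otx2 promoter. The boost of an enhancer was taken per replicate as the median over its EC combinations, and 48 of 57 enhancers were called higher with limma at an adjusted p below 0.01, where the share over all libraries was 81.4%. None was called lower (2.22% over all libraries), with 1 lower at a limma adjusted p below 0.05 (3.55% over all libraries) and 1 at an unadjusted p below 0.05. A rank-sum test over combinations also called 1 lower, but it takes combinations as replicates although they share fragments and the 3 transfections, so its p-values are too small. The median boost was 0.70. The boost was over 1 for 17 enhancers and over 0.5 for 40. The number called higher was 36 without replicate 1 and 36 without replicate 2.

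**Figure D1:**
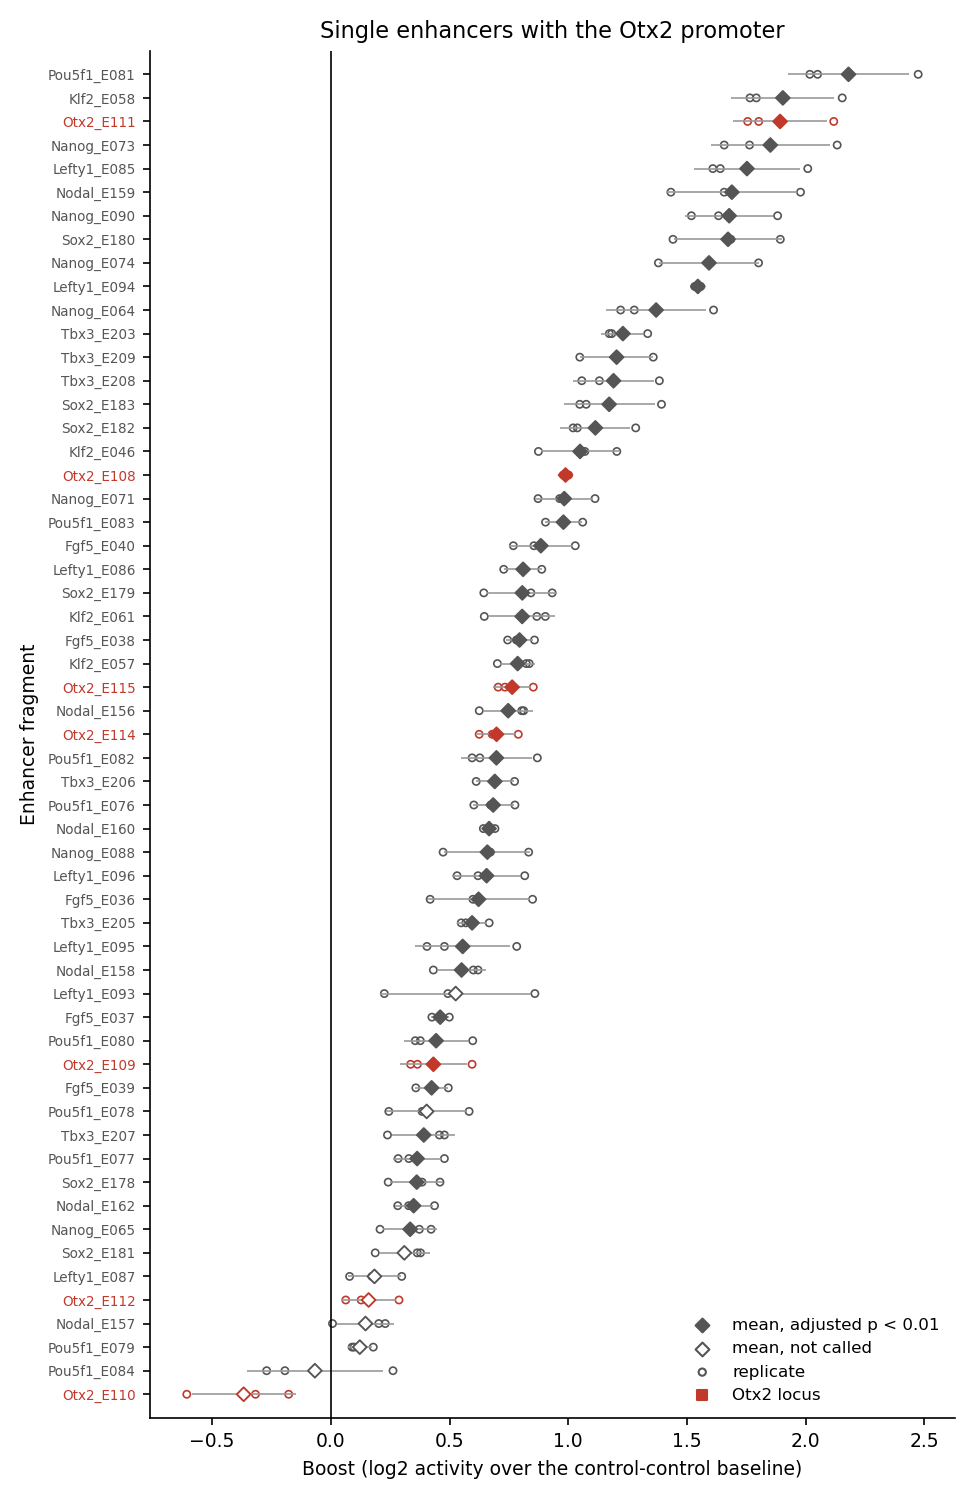
Single-enhancer boosts with the Otx2 promoter (horizontal axis, log2 activity over the control-control baseline) for 57 enhancers ordered by their mean. Open circles are the 3 replicates, diamonds the mean, lines the SD over replicates, filled diamonds the 48 enhancers called higher and red the Otx2 locus. Means run from 2.18 for Pou5f1_E081 to -0.37 for Otx2_E110, and the right-most circle is nearly always the same replicate, replicate 3.

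The strongest enhancers came from several loci. Pou5f1_E081 (chr17:35503887-35504336) gave boosts of 2.02, 2.05 and 2.47, and its mean of 2.18 ± 0.25 (4.53-fold) was the highest. Klf2_E058 (chr8:72316077-72316526) followed with 1.77, 1.79 and 2.15 (1.90 ± 0.22), and Otx2_E111 with 1.76, 1.80 and 2.12 (1.89 ± 0.20). Pou5f1_E081 exceeded both in each replicate, whereas Klf2_E058 and Otx2_E111 differed by less than their spread. Nanog_E073 had a mean boost of 1.85 ± 0.25, Lefty1_E085 of 1.75 ± 0.22, Nodal_E159 of 1.69 ± 0.27, Nanog_E090 of 1.68 ± 0.19 and Sox2_E180 of 1.67 ± 0.23. From Klf2_E058 down, neighbours in this order had means within 1 SD of each other. That SD takes in shifts that enhancers share within a replicate, so it does not measure the difference between neighbours. The limma adjusted p-values of these 8 enhancers were between 0.00015 and 0.00038.

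At the lower end, 6 enhancers had mean boosts below 0.2 and none of them was called. Otx2_E110 was below the baseline in all 3 replicates, at -0.32, -0.61 and -0.18 (-0.37 ± 0.22, limma adjusted p = 0.025). Pou5f1_E084 gave -0.19, -0.27 and 0.26 (-0.07 ± 0.29), so its replicates lay on both sides of the baseline. This median pools positions and orientations that differed. In plus orientation it gave 0.39, 0.25 and 0.77 in position 1 and -0.65, -0.80 and 0.004 in position 2. In minus orientation its replicates lay on both sides of the baseline in each position. The boosts of Pou5f1_E079 (0.12 ± 0.05), Nodal_E157 (0.15 ± 0.12), Otx2_E112 (0.16 ± 0.12) and Lefty1_E087 (0.18 ± 0.11) were above 0 in each replicate and did not pass the test. Otx2_E110 was the single enhancer with all 3 replicates below 0, and 55 enhancers had all 3 above.

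Each locus contributed active fragments. All tested fragments were called higher for Fgf5 (5 of 5), Klf2 (4 of 4), Nanog (7 of 7) and Tbx3 (6 of 6). The Nodal locus had 5 of 6, Sox2 5 of 6, Lefty1 5 of 7, Otx2 5 of 7 and Pou5f1 6 of 9. The median boost was highest for the Nanog fragments (1.37), while the Pou5f1 locus had the lowest median (0.44) although it held the strongest enhancer. The median of the 7 fragments of the Otx2 locus was 0.70, the same as that of all 57 enhancers.

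The fragments of the Otx2 locus are those that neighbour the promoter on its own chromosome. Otx2_E114 (chr14:48664703-48665152) and Otx2_E115 (chr14:48666311-48666760) lie inside the gene, upstream of the promoter fragment at 1457 and 3065 bp from it. The other 5 lie downstream of the gene, 1115 to 3801 bp from its end and 7130 to 9816 bp from the promoter fragment. Otx2_E111 (chr14:48654889-48655338) was the strongest of the 7, and each of its 158 EC combinations was called higher (100%).

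**Figure D2:**
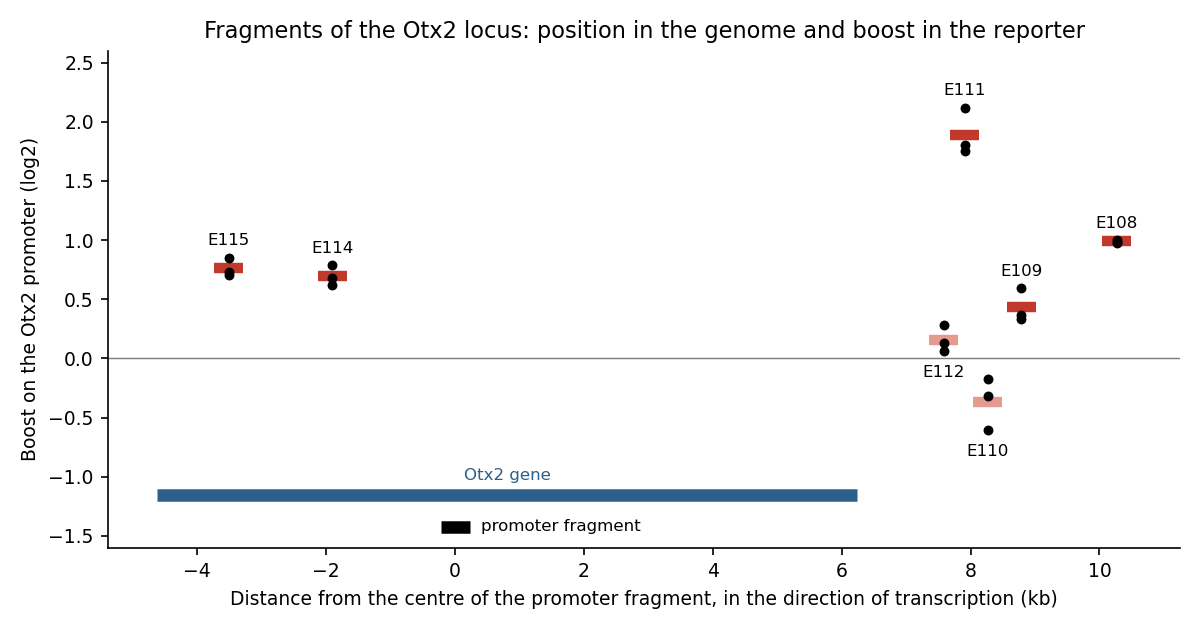
Boost of the 7 Otx2 locus fragments on the Otx2 promoter (vertical axis, log2) against their genomic distance from the centre of the promoter fragment in the direction of transcription (horizontal axis, kb). Red bars span each fragment at its mean boost (pale where not called), points are the 3 replicates, and the gene and the promoter fragment are drawn below at arbitrary height. Otx2_E111, at 1.89, lies between Otx2_E110 (-0.37) and Otx2_E112 (0.16).

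Activity was uneven along the downstream group. Otx2_E108 (chr14:48652530-48652979), the most distant, had nearly equal boosts of 1.00, 0.99 and 0.98 (0.99 ± 0.01), and 83.1% of its EC combinations were called higher. Otx2_E109 (chr14:48654012-48654461) reached 0.34, 0.36 and 0.59 (0.43 ± 0.14, limma adjusted p = 0.0057), and was not called without replicate 1 (0.48) or without replicate 2 (0.47). Otx2_E110 (chr14:48654527-48654976) and Otx2_E112 (chr14:48655216-48655665), on either side of Otx2_E111, were not called, and their replicates did not overlap with those of Otx2_E111. None of the 70 EC combinations with Otx2_E110 was called higher (0%), compared with 32.3% of the 130 with Otx2_E112. Of the upstream fragments, Otx2_E115 (0.73, 0.70 and 0.85; 0.76 ± 0.08) was above Otx2_E114 (0.68, 0.62 and 0.79; 0.70 ± 0.08) in each replicate. Their means differed by less than the SD of either, but fragments share the baseline of a replicate, so that SD does not measure their difference.

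Pairs within the Otx2 locus were then examined by the median boost over the orientations measured. The highest were Otx2_E111 in position 1 with Otx2_E114 (2.41, 2.54 and 2.74; 2.56 ± 0.16) or Otx2_E115 (2.35, 2.48 and 2.80; 2.55 ± 0.23) in position 2. They lay above Otx2_E111 alone in each replicate. Pairs of Otx2_E111 with Otx2_E110 were lower than Otx2_E111 alone in each replicate, at 1.62 ± 0.31 with Otx2_E110 in position 1 and 1.38 ± 0.31 with Otx2_E110 in position 2. Otx2_E110 in position 1 with Otx2_E112 in position 2 was below the baseline, at -0.32, -0.89 and -0.28 (-0.50 ± 0.34). In the other order, with 2 combinations, the replicates lay on both sides of it, at 0.17, -0.20 and 0.20 (0.06 ± 0.23). Most of these pairs rest on 4 combinations and some on 2 or 3.

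The highest EE combination reached a boost of 3.05, where the highest single EC combination reached 2.88. It was Pou5f1_E081 in minus orientation with Tbx3_E203 in plus orientation, whose activities were 3.20, 3.48 and 3.81. Its boosts were 2.81, 2.96 and 3.39 (3.05 ± 0.30, 8.29-fold). Klf2_E058 with Tbx3_E203 (2.93 ± 0.24) and Pou5f1_E081 with Pou5f1_E083 (2.93 ± 0.27) came next. They were followed by Pou5f1_E081 in plus orientation with Tbx3_E203 (2.91 ± 0.22) and Lefty1_E085 with Tbx3_E203 (2.91 ± 0.31). The first was above the other 4 in each replicate, while the means of all 5 lay within 1 SD of each other. In each of them the fragment in position 2 was in plus orientation and was not among the 8 strongest single enhancers. Tbx3_E203 had a single boost of 1.18, 1.17 and 1.33 (1.23 ± 0.09), and Pou5f1_E083 of 0.90, 0.97 and 1.06 (0.98 ± 0.08).

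Few fragments made up both ends of the EE class. Of the 100 highest EE combinations, 42 contained Pou5f1_E081, 28 Tbx3_E203 and 24 Otx2_E111, which were in 418, 410 and 429 of all 8586. Of the 100 lowest, 42 contained Pou5f1_E084 and 40 Otx2_E110, which were in 365 and 249 of all. The lowest combination was Otx2_E110 in minus with Pou5f1_E084 in plus orientation, with activities of 0.0742, 0.152 and 0.140 and a boost of -1.85 ± 0.67. It was followed by Otx2_E110 with Pou5f1_E082 (-1.69 ± 0.40), Otx2_E110 with Sox2_E181 (-1.56 ± 0.39), Pou5f1_E082 with Otx2_E110 (-1.46 ± 0.28) and Lefty1_E087 with Pou5f1_E084 (-1.40 ± 0.99). None of these 5 was called, with limma adjusted p-values of 0.035 to 0.085. In all, 77 EE combinations were below the baseline in each replicate, and 58 of them contained Otx2_E110 or Pou5f1_E084, as did 606 of all EE combinations (7.06%).

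To compare pairs with the single enhancers they hold, an expected additive activity was computed per replicate. It is the median EC activity of the first enhancer in position 1, plus that of the second enhancer in position 2, minus the baseline. An expectation could be made for 8578 of the 8586 EE combinations. Observed activity stayed close to it. The median log2 of observed over expected activity was -0.040, -0.001 and -0.023 in the replicates (-0.02 ± 0.02), and 86.9% of combinations lay within 0.5 log2 units of the expectation. Observed and expected log2 activity correlated with r = 0.841 across combinations, which share fragments and the library. A multiplicative expectation overshot, with a median log2 ratio of -0.28.

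No EE combination was called above or below the additive expectation with limma at an adjusted p below 0.01, for the Otx2 promoter or over all libraries (0% in either direction). The smallest adjusted p was 0.015. At a limma adjusted p below 0.05, 1086 Otx2 combinations were above the expectation, against a share of 25.3% over all libraries, and 1549 were below it, against 14%. At an unadjusted p below 0.05 these numbers were 1665 and 2120. With a limit of 1 propagated SD in place of the test, 449 were above and 929 below of 8428 with such a limit. For the unadjusted and the SD counts no share over all libraries is given, so they do not show whether Otx2 differs from other promoters.

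**Figure D3:**
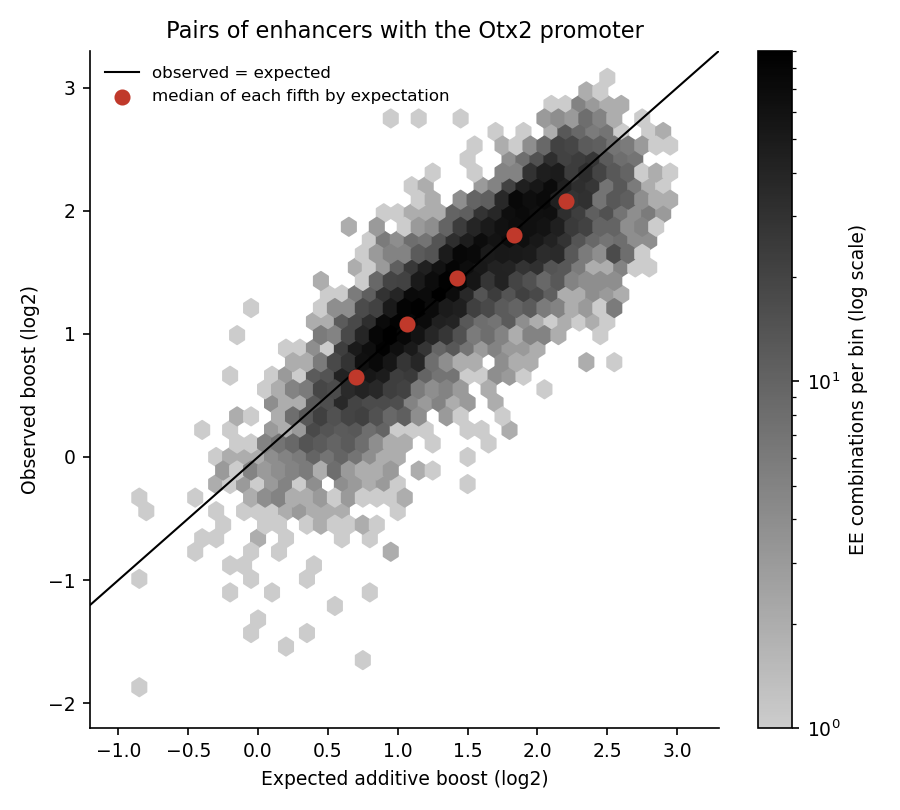
Observed boost of the EE combinations with the Otx2 promoter (vertical axis, log2) against the expected additive boost (horizontal axis, log2), as a density of 8578 combinations with a log grey scale. The line marks equality and red points the median of each of 5 groups of equal size by expectation. The points follow the line up to the last one, where the median observed boost is 2.08 and the median expected boost 2.20.

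The deviation varied with the expected boost of the pair. When combinations were divided into 5 groups of equal size by their expected boost, the median log2 of observed over expected activity was -0.02 ± 0.04, 0.03 ± 0.01, 0.04 ± 0.01 and -0.02 ± 0.02 in the first 4. In the top group, with expected boosts from 2.02 to 2.92, it was -0.22, -0.13 and -0.14 (-0.16 ± 0.05), below 0 in each replicate. There, 37.2% of combinations were below the expectation and 9.62% above it at a limma adjusted p below 0.05, compared with 10.9% and 14.7% in the middle group. The expectation both sorts the combinations and is the denominator of the deviation, so an error in it enters both. The part of this in the value of the top group was not tested.

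**Figure D4:**
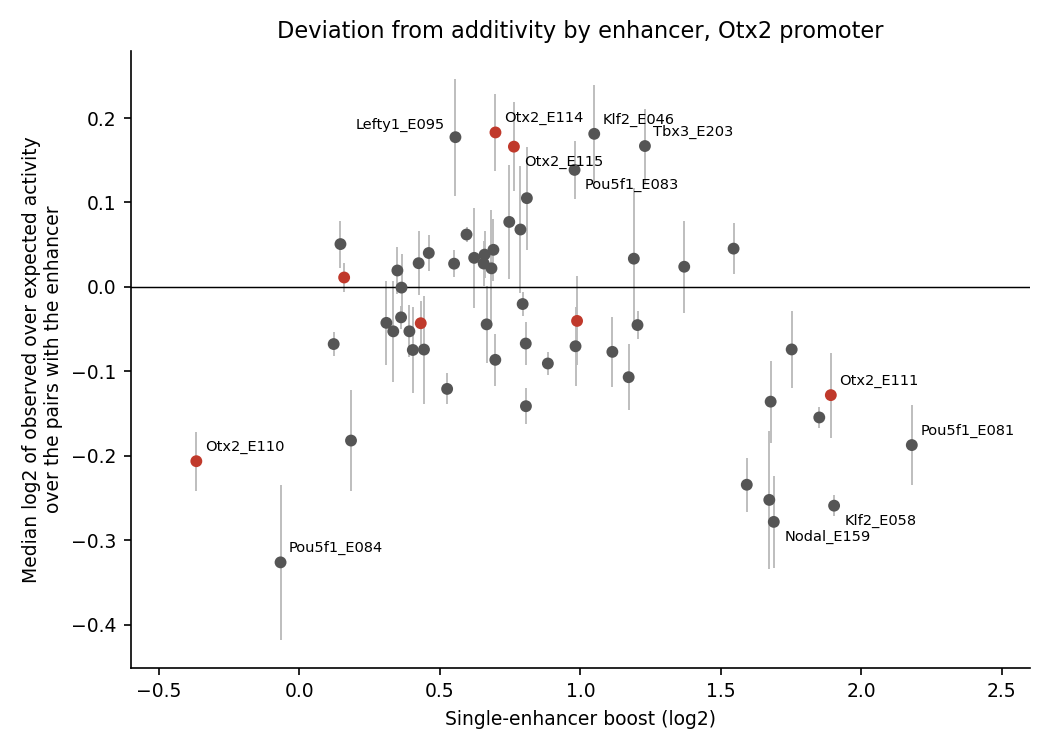
Median log2 of observed over expected additive activity over the EE combinations that contain an enhancer (vertical axis) against the enhancer's single boost (horizontal axis, log2). Points are enhancers, lines the SD over 3 replicates, and red points the Otx2 locus. Both axes use the enhancer's EC combinations. Pou5f1_E084 (-0.33) and Klf2_E058 (-0.26) lie low, and Otx2_E114 (0.18) and Tbx3_E203 (0.17) high.

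Enhancers differed in how their pairs compared with the expectation. Over its pairs, the median deviation was highest for Otx2_E114 (0.14, 0.23 and 0.17; 0.18 ± 0.05), Klf2_E046 (0.18 ± 0.06), Lefty1_E095 (0.18 ± 0.07), Tbx3_E203 (0.17 ± 0.04) and Otx2_E115 (0.17 ± 0.05). Each was above 0 in all 3 replicates. It was lowest for Pou5f1_E084 (-0.29, -0.26 and -0.43; -0.33 ± 0.09), followed by Nodal_E159 (-0.28 ± 0.05), Klf2_E058 (-0.26 ± 0.01) and Sox2_E180 (-0.25 ± 0.08), the last 3 of which were among the strongest single enhancers. Pairs share their partners, so these medians were not tested. The expectation for Klf2_E046 rests on 1 EC combination in position 1 and 4 in position 2.

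The gain of a pair over its stronger member was moderate. Its median was 0.21, 0.20 and 0.25 (0.22 ± 0.03, 1.17-fold), and it was above 0 in each replicate for 57.6% of the combinations and below 0 for 16.6%. By enhancer, the median gain was largest for Tbx3_E203 (0.49, 0.52 and 0.58; 0.53 ± 0.05), Klf2_E046 (0.51 ± 0.10) and Otx2_E115 (0.50 ± 0.04). It was smallest for Otx2_E110 (-0.36, -0.54 and -0.32; -0.41 ± 0.11), Pou5f1_E084 (-0.40 ± 0.08) and Lefty1_E087 (-0.07 ± 0.03). The median pair with Otx2_E110 or with Pou5f1_E084 was thus below its stronger member in each replicate.

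Deviations of single combinations reached further, and those named here were chosen after their values were seen, since none was called. Klf2_E046 in plus with Pou5f1_E078 in minus orientation lay 1.67, 2.03 and 1.78 above the expectation on the log2 scale (1.83 ± 0.18), and Tbx3_E203 with Pou5f1_E079, both in minus orientation, lay 1.45, 1.80 and 1.72 above it (1.66 ± 0.18). Both had a limma adjusted p of 0.015. The Klf2_E046 term of the first expectation rests on 1 EC combination, so it was not averaged over controls. The expected boost of that pair was 0.91, below the 1.05 of Klf2_E046 alone. On the other side, Nodal_E159 with Klf2_E058, both in minus orientation and both strong alone, had deviations of -2.29, -1.57 and -1.51 (-1.79 ± 0.43, limma adjusted p = 0.031). Otx2_E110 with Pou5f1_E082, both in minus orientation, had -2.37, -2.53 and -2.30 (-2.40 ± 0.12, limma adjusted p = 0.19). Its limma standard error was 1.24, compared with 0.20 for Klf2_E046 with Pou5f1_E078. The fit takes in a mean-variance trend, so this p-value does not follow the spread of its own 3 replicates alone.

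The deviation differed little between pairs from the same and from different loci. The median was 0.05 ± 0.04 for the 121 combinations of 2 fragments of the Otx2 locus, -0.05 ± 0.03 for the 740 of the same locus elsewhere and -0.02 ± 0.02 for the 7716 of different loci. The values of the Otx2 locus were 0.003, 0.080 and 0.061 in the replicates. They exceeded those of the same locus elsewhere by 0.07, 0.09 and 0.12 and those of different loci by 0.04, 0.08 and 0.08. Each difference had 1 sign in all 3 replicates, with p = 0.25 in the two-sided exact permutation test over replicates, the smallest p possible. Combinations in the same orientation (-0.024) were lower than those in opposite orientations (-0.018) by a mean difference of -0.006 ± 0.005 (exact p = 0.25).

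Differences between positions were small for most enhancers. Boosts in position 1 and in position 2 correlated with r = 0.942 across 55 enhancers of the same library, and the median absolute difference was 0.14. With limma at an adjusted p below 0.01, none was called higher in position 2 (1.85% over all libraries) and 1 was called lower (4.85%). This was Otx2_E112, with 0.47, 0.45 and 0.60 in position 1 and 0.06, -0.07 and 0.17 in position 2, a difference of -0.46 ± 0.06 (adjusted p = 0.0096). Its groups did not overlap, and the difference was -0.42 to -0.48 without each replicate in turn, where it was not called. Orientation was not balanced between the positions, with 40 plus and 10 minus combinations in position 1 and 40 of each in position 2. Within plus orientation the difference was -0.23, -0.23 and -0.13 (-0.20 ± 0.06, limma adjusted p = 0.067), and within minus orientation it was -0.46, 0.06 and -0.35 (-0.25 ± 0.27, limma adjusted p = 0.17), so it was smaller than the pooled value and was called in neither. Pou5f1_E084 had the largest difference, at -0.57, -0.61 and -0.37, and was not called (-0.52 ± 0.13, limma adjusted p = 0.012). Within plus orientation it was -0.95 ± 0.16 (limma adjusted p = 0.0065), and within minus 0.02 ± 0.23 (limma adjusted p = 0.91). These comparisons within 1 orientation were chosen after seeing the data. At a limma adjusted p below 0.05, 10 enhancers were higher (18.9% over all libraries) and 5 lower (21%) in position 2, and at an unadjusted p below 0.05, 15 and 11.

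Orientation was compared within each position, in 94 tests. The boost in plus orientation was called higher than in minus in 6 (7.28% over all libraries) and lower in 2 (5.88%), and 6 of these 8 were in position 2. The largest difference was that of Sox2_E181 in position 2, with -0.15, -0.31 and -0.15 in plus and 0.81, 0.65 and 0.80 in minus orientation (-0.96 ± 0.01, limma adjusted p = 0.0065). In position 2, the same fragment was thus below the baseline in 1 orientation and above it in the other. In position 1 its means were 0.18 in plus and 0.30 in minus (-0.12 ± 0.19, limma adjusted p = 0.33). Otx2_E112 in position 2 went the other way, with 0.35, 0.26 and 0.52 in plus and -0.31, -0.39 and -0.18 in minus orientation (0.67 ± 0.03, limma adjusted p = 0.0065). In position 1 its difference was 0.61 ± 0.29 (limma adjusted p = 0.026).

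In position 2, a pair of further Otx2 locus fragments was called higher in plus orientation. For Otx2_E114 the boosts were 0.89, 0.90 and 1.01 in plus and 0.34, 0.39 and 0.36 in minus (0.57 ± 0.07). For Otx2_E111 they were 2.10, 2.04 and 2.35 in plus and 1.61, 1.58 and 1.95 in minus, and the difference was 0.45 ± 0.05. In position 1, the Otx2_E111 difference was 0.03 ± 0.02 (limma adjusted p = 0.62). Otx2_E109 (-0.19 ± 0.20) and Otx2_E110 (-0.16 ± 0.12) had negative differences in position 2, with limma adjusted p-values of 0.19 and 0.14. Pou5f1_E084 in position 1 differed by 0.65 ± 0.16, Nodal_E156 in position 2 by -0.57 ± 0.08, Tbx3_E206 in position 1 by 0.45 ± 0.08 and Fgf5_E037 in position 2 by 0.40 ± 0.05. Across enhancers, both orientations correlated with r = 0.928 in position 1 and 0.856 in position 2. With 2 of the 3 replicates, none of the 8 was called, although the differences of the 5 largest kept their sign. At a limma adjusted p below 0.05, 19 tests were higher in plus (21% over all libraries) and 16 were lower (19.3%), of which 9 were among the 40 in position 1 and 26 among the 54 in position 2.

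The Otx2 promoter was next set against the other 7 promoters. Its boosts rose less steeply than those of the other promoters on average. The least squares slope on the mean boost over the other promoters was 0.52, 0.57 and 0.62 (0.57 ± 0.05, n = 3). It was taken over 49 single enhancers, where the correlation was r = 0.947. Without Ap1m1 and Fgf5, the slope over single enhancers was 0.53. Some weak enhancers had a higher boost on Otx2 than the mean over the other promoters, which takes in the Fgf5 boosts. Over 6085 EE combinations measured in all 8 libraries, the slope was 0.55, 0.64 and 0.67 (0.62 ± 0.07). Otx2_E111, for example, had a mean boost of 1.89 on its own promoter, 1.80 on Klf2, 2.12 on Nanog and 0.81 on Ap1m1, and of 3.06 to 4.24 on Fgf5, Tbx3, Sox2 and Lefty1. The promoters of that last group had baseline activities of 0.0890 to 0.232, compared with 0.420 for Otx2 (geometric mean over replicates).

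**Figure D5:**
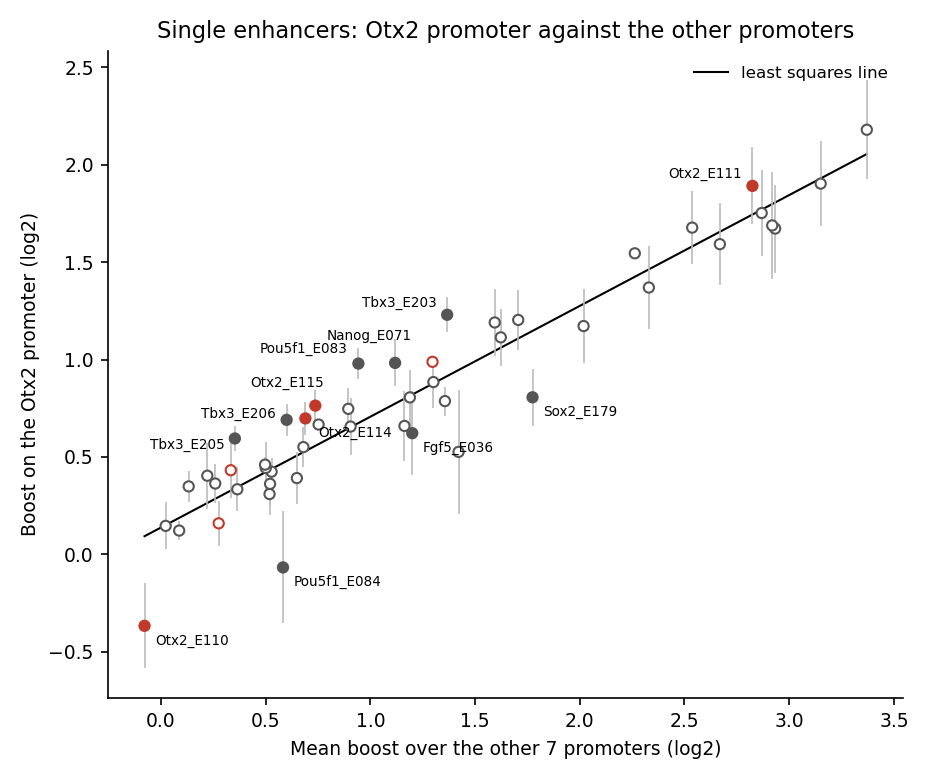
Single-enhancer boost on the Otx2 promoter (vertical axis, log2, lines are the SD over 3 replicates) against the mean boost over the other 7 promoters (horizontal axis, log2) for 49 enhancers. Filled points are the 12 enhancers off the least squares line at a limma adjusted p below 0.05, and red marks the Otx2 locus. Tbx3_E203 lies above the line by 0.31, and Pou5f1_E084 lies below it, at a residual of -0.54.

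No enhancer departed from this line with limma at an adjusted p below 0.01, where 1.02% were called higher and 1.28% lower over all libraries. At a limma adjusted p below 0.05, 8 of 49 were higher (17.9% over all libraries) and 4 were lower (16.1%), and at an unadjusted p below 0.05, 12 and 9. These enhancers are named although the rule for naming asked for the stricter limit. The residuals were 0.31 ± 0.04 for Tbx3_E203, 0.31 ± 0.08 for Pou5f1_E083, 0.26 ± 0.07 for Tbx3_E205, 0.21 ± 0.09 for Tbx3_E206 and 0.21 ± 0.08 for Nanog_E071. Of the Otx2 locus, Otx2_E115 (0.21 ± 0.03), Otx2_E114 (0.17 ± 0.02) and Otx2_E111 (0.15 ± 0.02) lay above the line. Below it lay Pou5f1_E084 (-0.66, -0.64 and -0.31; -0.54 ± 0.20), Otx2_E110 (-0.44, -0.60 and -0.34; -0.46 ± 0.13), Sox2_E179 (-0.34 ± 0.09) and Fgf5_E036 (-0.20 ± 0.10). Without replicate 3, 2 were called lower at the stricter limit, Pou5f1_E084 (-0.62) and Otx2_E110 (-0.49).

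The low fragments differed between promoters. Otx2_E110 had a mean boost of -0.37 ± 0.22 on Otx2, -0.14 ± 0.13 on Klf2 and -0.27 ± 0.12 on Nanog, and of 0.53 ± 0.43 on Sox2, 0.18 ± 0.21 on Tbx3 and 0.15 ± 0.31 on Lefty1. It was 0.11 ± 0.05 on Ap1m1, and -1.11 ± 0.41 on Fgf5, from 15 EC combinations. The paper reports that the Fgf5 baseline rests on far fewer CC combinations than the others. It proposes that this likely caused the underestimated expected activities in the low range there. The median EC boost on Fgf5 was 0.56 ± 0.23, below the 1.51 to 1.67 on Sox2, Lefty1 and Tbx3. The part of the Fgf5 baseline in the Fgf5 boosts was not tested. Pou5f1_E084 had -0.07 ± 0.29 on Otx2, -0.02 ± 0.12 on Klf2 and 0.06 ± 0.12 on Nanog, and reached 1.68 ± 0.32 on Sox2, 1.19 ± 0.24 on Lefty1 and 1.11 ± 0.08 on Tbx3. On Ap1m1 it was lowest, at -0.62, -0.51 and -0.46 (-0.53 ± 0.08), and on Fgf5 it was 0.60 ± 0.39, from 10 EC combinations. The same fragment thus had replicates on both sides of the baseline on the Otx2 promoter, all below it on Ap1m1, and all above it on Sox2, Lefty1, Tbx3 and Fgf5.

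The promoters of Klf2 and Nanog were the most similar to Otx2 in baseline and response. In a joint limma fit of 57 enhancers, the Otx2 boost exceeded the Klf2 boost by a median of 0.04, with differences from -0.38 to 0.23, and it was lower than the Nanog boost by a median difference of -0.12, with differences from -0.43 to 0.17. None of the differences from either promoter was called at an adjusted p below 0.01 (0%), and the smallest limma adjusted p was 0.97. At an unadjusted p below 0.05 none differed from Klf2, and 2 from Nanog. These were Nanog_E073, with a difference of -0.43 and a 95% interval of -0.79 to -0.06, and Fgf5_E036, with -0.40 and an interval of -0.75 to -0.05. The 95% intervals of the differences had a median width of 0.68, which limits what this comparison can resolve. The fit took the error of an enhancer from the replicates of all 8 libraries. The intervals and p-values therefore do not measure the spread on these 3 promoters alone. For Tbx3_E203, for example, the SD over replicates was 0.09 on Otx2 and 0.04 on Klf2, but 0.81 on Fgf5. The boosts correlated with r = 0.979 for Klf2 and 0.983 for Nanog across enhancers, and the 10 strongest enhancers were the same on all 3 promoters.

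Finally, the controls were compared among themselves, because the baseline is made from them. None of the 20 control fragments was called above (1.37% over all libraries) or below (4.11%) the baseline with limma at an adjusted p below 0.01. At a limma adjusted p below 0.05, 2 were above (15.8%) and 2 below (19.9%), and at an unadjusted p below 0.05, 3 and 6. The highest were E46-shuffled2 (0.59, 0.41 and 0.18; 0.39 ± 0.20), RandomE5 (0.37, 0.37 and 0.29; 0.34 ± 0.05) and E27-shuffled3 (0.24 ± 0.30), and the lowest E6-shuffled1 (-0.37 ± 0.11), E95-shuffled1 (-0.18, -0.36 and -0.55; -0.36 ± 0.18) and RandomE3 (-0.24 ± 0.12). Without replicate 3, E46-shuffled2 was called at the stricter limit, at 0.50.

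The choice of control carried over to the EC combinations. The boost of a control in CC combinations correlated with r = 0.911 across the 20 controls with the median deviation of its EC combinations from the median of the same enhancer. For RandomE5 that deviation was 0.35, 0.32 and 0.37 (0.34 ± 0.02), and for E95-shuffled1 it was -0.29, -0.38 and -0.35 (-0.34 ± 0.05). These values come from the same library and transfections. Across the controls, the CC boost correlated with the GC content, which ranged from 45.2% to 57.6%, with r = 0.167. Enhancers with few EC combinations, such as Klf2_E046 with 5, were measured beside few of these controls.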

How the data were processed

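The authors linked barcodes to fragment pairs by inverse PCR sequencing, with Bowtie2 and mm10 named in the submitters' processing notes. Per barcode they divided normalised cDNA counts by normalised pDNA counts. The deposited activity of a combination is the mean of these ratios over at least 5 barcodes with at least 8 pDNA counts, per replicate. Barcode and read numbers per combination are not in the table used here, so the depth behind a value is unknown and no counting interval is given. The authors' derived columns were not used. The deposited class column marks shuffled controls as enhancers, so classes were taken from the columns that give each fragment's set, and the baseline calculated here differs from that in the derived columns. Values were analysed per replicate on the log2 scale, without a pseudocount.

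Tests were limma 3.58.1 moderated tests (R 4.3.3) over the 3 biological replicates of each library, fitted on all 8 libraries with Benjamini-Hochberg adjustment, and called at an adjusted p below 0.01. Fits of combinations used a mean-variance trend. Single enhancers were medians over EC combinations, and position and orientation needed at least 3 EC combinations on each side, as control fragments needed 3 CC combinations. The enhancers named are the Otx2 locus, the 8 highest and 6 lowest single enhancers, the 5 highest and 5 lowest EE combinations, the 3 largest and 3 smallest gains, the 3 highest and 3 lowest controls, and called effects by size. Members, lists and tests were chosen with earlier results of these data known.

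Sequences are from RefSeq (GRCm38.p6) and the study's primer and control lists, and the sequences of whole enhancer fragments were not analysed here. On simulated data, the test of single enhancers recovered 61.2% of changes of 0.5 and 88.7% of changes of 1 log2 unit among 451 features. For deviations from additivity, it recovered none of 200 changed combinations at either size, and 43.2% and 73.6% when 30% of 67489 combinations were changed. For combination boosts, it recovered none at an adjusted p below 0.01 even when 30% of 107181 were changed. In the data, 79.4% of combinations over all libraries were called higher, so that simulation does not match them. The count of 0 lower still has little weight, because 75 Otx2 combinations were lower without the mean-variance trend. Alternatives covered the baseline, orientation, number of EC combinations, threshold, test, model, other promoters and each replicate left out, with position within 1 orientation added after seeing the data.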

Additional observations from a re-analysis of the deposited data

How the results depend on the processing

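At an adjusted p below 0.05 in place of 0.01, 1 single enhancer was called lower, 107 combinations were lower, 1086 EE combinations were above and 1549 below additivity, 10 position effects were higher and 5 lower, 19 orientation effects were higher and 16 lower, 8 residuals were higher and 4 lower, and 2 controls were higher and 2 lower. Otx2_E110 was the 1 enhancer called lower with 1 baseline per library, and 1 was lower in the rank-sum test, which takes combinations as replicates and gives p-values that are too small. Without the mean-variance trend, 75 combinations were lower. A multiplicative expectation gave 25 combinations above and 1550 below, and a median observed over expected activity of -0.28. A limit of 1 propagated SD gave 449 above and 929 below. With the mean of log2 activity as baseline, the median observed over expected activity was -0.049. With at least 6 EC combinations per enhancer, 2 residuals were called higher and 3 lower. Positions compared within 1 orientation, an alternative chosen after seeing the data, gave 1 lower call in plus, which was Pou5f1_E084 (-0.95) and not Otx2_E112, and 0 in minus.

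Without each replicate in turn, 0 to 1 single enhancers were called lower, 0 position effects lower, 0 orientation effects higher and 0 lower, 0 to 2 residuals lower and 0 to 1 controls higher. The boost of Pou5f1_E084, pooled over positions and orientations, ranged from -0.23 (without replicate 3) to 0.034 (without replicate 2). It was 0.00084 with the mean as baseline, so the sign of this pooled boost is not settled. The other 138 values of main comparisons under an alternative kept their direction and their side of the threshold, or stayed within 1.5 times the count or 1 SD of the value reported. The cause was not tested where a value moved, except that leaving out a replicate removes data and a wider threshold admits more calls.

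Same-numbered replicates of different libraries correlated above 0.1 in 16 of 21 comparisons of the Otx2 replicates with the other 7 libraries (from -0.23 to 0.82), and the other 5 were all of replicate 3. The numbers were not taken as pairs, since not every correlation was above 0.1. With the number as a replicate block, 2 residuals were called higher (Tbx3_E203 and Pou5f1_E083) and 4 lower (Otx2_E110, Lefty1_E093, Sox2_E179 and Pou5f1_E084). The differences from Klf2 and from Nanog stayed at 0 calls with the block, which was not run for other counts. In 17 of 21 the same-numbered replicate correlated best. Depth is unknown, and the shared plasmid sample and 3 replicates limit the precision.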
